A study of Mus musculus with 24 samples.

Results

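The Serpin family was measured in mouse liver through every gene probe whose name on the array was Serpin followed by a clade letter (a to i), a number and an optional letter. This gave 62 genes on 85 probes, out of 37074 gene names on the array. Of the 62 genes, 37 were tested, and 25 did not reach the level needed for a test. Serpins are protease inhibitors that work as a bait. A target protease cuts the exposed reactive loop of the serpin, the serpin changes shape, and the protease is left trapped and inactive. A few members have lost this activity and carry hormones or assist protein folding. The liver secretes many clade A serpins and the serpins that hold blood clotting, fibrinolysis and complement in check, whereas clade B serpins stay mostly inside cells. Several clade A genes are classical acute phase genes, which hepatocytes transcribe more during inflammation.

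Mouse Serpin genes arose by repeated local duplication, so the likeness of the probes decides how far paralogs can be read apart. The probe spans of 24 clade A genes lay within 799 kb of chromosome 12, those of 15 clade B genes within 1144 kb of chromosome 13, and those of 12 further clade B genes within 726 kb of chromosome 1. Probe sequences of different members were aligned wherever their windows overlapped. The probes of Serpina1a and Serpina1c differed at 1 of 51 aligned bases, those of Serpinb6a and Serpinb6c at 3 of 42, and the second probe of Serpina3i differed from the Serpina3h probe at 6 of 57. The 30 bases below, taken from these probes and placed on build mm9 as the array gives it, are shown because they carry the bases that tell these pairs apart, in capitals.
Serpina1a, chr12:105091846-105091875, - strand: Aatgtcatccttccttctgaattgggttcc
Serpina1c, chr12:105133183-105133212, - strand: Gatgtcatccttccttctgaattgggttcc
Serpinb6a, chr13:34009820-34009849, - strand: ccttatccataagtgcaatgGcaATtatga
Serpinb6c, chr13:33971709-33971738, - strand: ccttatccataagtgcaatgAcaGCtatga
Serpina3h, chr12:105491747-105491776, + strand: GgtcaaaTtAaTtctaTgttgtgAaaaaat
Serpina3i, chr12:105506716-105506745, + strand: AgtcaaaGtTaAtctaCgttgtgGaaaaat
Serpina1b and the second, dimmer probe of Serpina1e differed at 5 of 44 aligned bases. The main Serpina1e probe differed from that of Serpina1c at 10 of 59 and from that of Serpina1a at 11 of 50. Serpinb6c and Serpinb6e differed at 6 of 47, Serpinb9f and Serpinb9g at 7 of 59, and Serpinb3a and Serpinb3c at 5 of 48. Members of these pairs are reported under their own names, but the probes could take up signal from the partner. Probes whose windows did not overlap could not be compared in this way. The main Serpinb8 probe resembled probes of 9 genes outside the family, with 7 to 13 mismatches.

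All 62 symbols were found in RefSeq, and 52 genes had a promoter sequence there (build GRCm38.p6). The stretches below cover 160 bases before the start site of the 4 Serpina3 genes that rose with the agonist in both genotypes, shown because these neighbours moved together. Capitals mark matches to TTCNNNGAA (the STAT motif), TTGCNNAA (the C/EBP motif) or ACANNNTGT (the glucocorticoid receptor motif), searched on both strands of the 300 bases around each start.
Serpina3f, chr12:104214384-104214543, + strand: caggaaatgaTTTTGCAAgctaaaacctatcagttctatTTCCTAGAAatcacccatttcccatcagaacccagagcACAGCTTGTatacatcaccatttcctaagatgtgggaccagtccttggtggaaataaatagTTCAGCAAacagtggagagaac
Serpina3g, chr12:104235987-104236146, + strand: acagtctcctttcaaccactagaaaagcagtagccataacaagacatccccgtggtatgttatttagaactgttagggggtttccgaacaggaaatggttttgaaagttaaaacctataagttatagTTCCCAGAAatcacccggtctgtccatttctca
Serpina3i, chr12:104262962-104263121, + strand: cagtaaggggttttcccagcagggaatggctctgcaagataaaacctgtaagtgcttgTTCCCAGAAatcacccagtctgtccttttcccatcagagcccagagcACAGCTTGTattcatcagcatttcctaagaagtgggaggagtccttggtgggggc
Serpina3n, chr12:104406548-104406707, + strand: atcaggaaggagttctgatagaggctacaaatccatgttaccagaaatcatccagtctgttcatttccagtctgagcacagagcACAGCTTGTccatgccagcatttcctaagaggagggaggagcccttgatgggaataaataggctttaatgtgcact
The first of 2 listed starts is shown for Serpina3f. Serpina3g and Serpina3i held the same STAT match, Serpina3f differed from it by C5T, and at the like place Serpina3n differed by C3A and so held no match (positions count from the first base of the Serpina3g match). Serpina3f, Serpina3i and Serpina3n each held the same ACAGCTTGT. Serpina3c, called in neither genotype, held it too, so it is not particular to the genes that rose. Across all 32851 listed promoters the STAT motif was found in 8.3%, the C/EBP motif in 10.8% and the glucocorticoid receptor motif in 6.8%. The 52 member genes have 60 listed promoters, some of them overlapping windows of 1 gene. Of these 60, 11 held the first (8 genes), 15 the second (13 genes) and 12 the third (11 genes). The direct repeat AGGTCANAGGTCA, the element that PPAR receptors bind, was found in 13 of the 32851 promoters and in 0 of the 60. These matches describe letters in a window and do not show binding.

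The 24 livers came from male C57Bl/6J mice with free access to a standard diet, 6 in each of 4 groups. LWT mice expressed PPAR alpha in hepatocytes and LKO mice did not, per the series title. The promoter driving the deletion and the deleted part of Ppara are not given in the sources used here. At Zeitgeber time 10 h mice were gavaged with CL316243 (3 mg/kg) or with its vehicle (0.5% carboxymethyl cellulose), and livers were collected at 16 h. CL316243 activates beta3 adrenergic receptors, which are found mainly on fat cells, and PPAR alpha is the nuclear receptor that turns on fatty acid oxidation in fasting liver. Each mouse had 1 single-colour (Cy3) array, and levels below are log2 intensities minus the 75th percentile of that array, so that 0 is the 75th percentile. Arrays had 26985 to 34202 of their 56605 probes above background, and 0 values were saturated. Ppara lay at 4.81 to 5.18 in LKO vehicle mice and at 5.45 to 5.93 in LWT vehicle mice, without overlap. The difference of -0.68 was not called (adjusted p = 0.158), and under CL316243 it was -1.91 (adjusted p = 3.6e-07). Its probe may lie outside the deleted part, so it is a limited check of the labels. All 5 hepatocyte markers on the array were well above background on every array of each group.

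CL316243 changed 10 of the 37 tested members in LWT mice and 14 in LKO mice, at an adjusted p under 0.05 in a fit across all 21331 genes. In LWT, 6 rose and 4 fell (27% of members), beside 38.3% of all genes, of which 18.9% were higher and 19.4% lower. In LKO, 10 rose and 4 fell (37.8% of members), beside 40.3% of all genes, 20.9% higher and 19.4% lower. The share of members called was thus near or below that of all genes in each genotype. The median change was 0.13 over members and 0.01 over all genes in LWT, and 0.14 and 0.03 in LKO. The member median became -0.04 in both genotypes with quantile normalization and in the authors' deposited series table, beside -0.03 to 0 over all genes. No direction is therefore given for it. After quantile normalization the counts were 6 higher and 7 lower in LWT and 10 and 6 in LKO, and in the authors' deposited series table they were 6 and 7, and 10 and 8. The added lower calls were Serpinc1, Serpine2, Serpinf1, Serpinf2, Serpina1d and Serpina3k in at least 1 of these settings, while the members called higher were the same 6 and 10. In whole liver, fewer cells of a type and less RNA per cell cannot be told apart.

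Of these calls, 8 were shared by the genotypes, and each had the same direction in both. Among them Serpina3n, Serpina3i, Serpina3g, Serpina3f and Serpina10 rose, and Serpina9 and Serpind1 fell. These 8 are 80% of the LWT calls and 57.1% of the LKO calls. In LWT, 2 members were higher and 3 lower with no overlap between the groups of 6, beside 10% and 10.4% of all genes, and in LKO 8 were higher and 4 lower, beside 10.5% and 10.4%. A further 20 of the 37 members were called in no comparison, with changes of at most 0.59 in size. For calls shared by the genotypes and for members called in no comparison, the shares of all genes were not worked out. These counts are therefore not read as traits of the family.

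**Figure D1:**
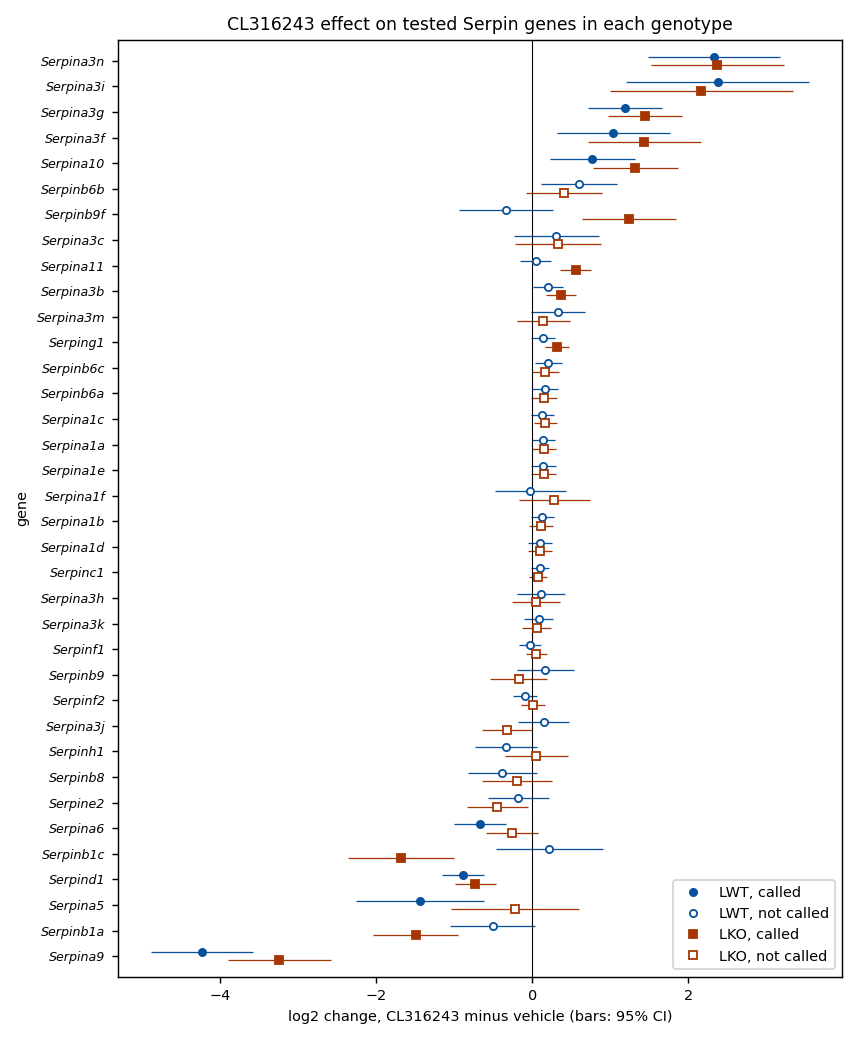
Log2 change with CL316243 against vehicle for the tested Serpin genes reported here (x axis), LWT as circles and LKO as squares, with 95% confidence intervals; filled symbols were called. Serpina3n is at the right in both genotypes, at 2.33 and 2.37, and Serpina9 far to the left, at -4.23 and -3.24.

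**Figure D2:**
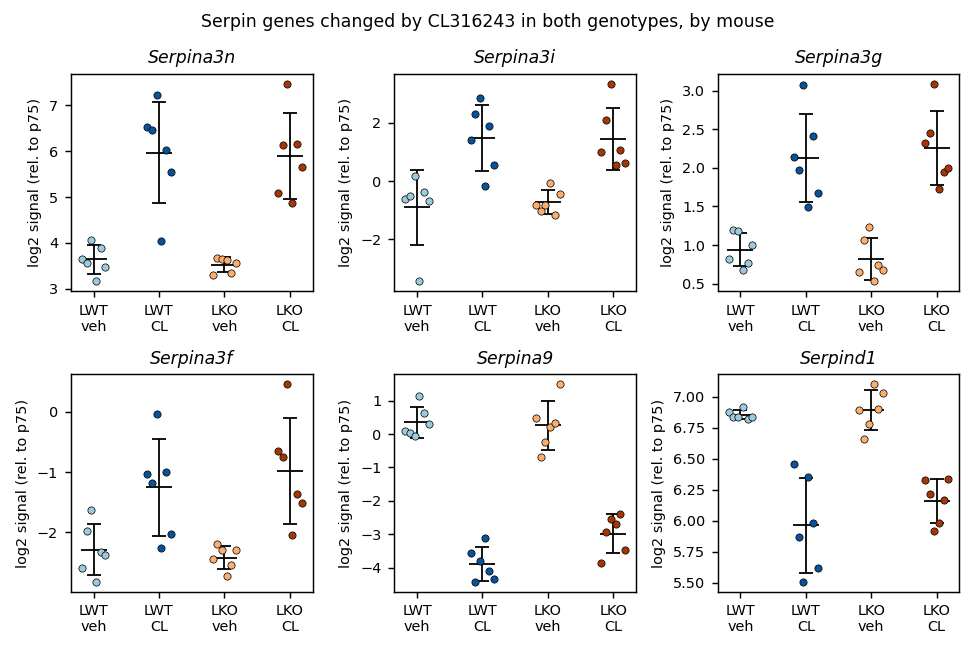
Log2 signal relative to the 75th percentile of the array for 6 Serpin genes called in both genotypes, with 1 point per mouse, 6 mice per group, and the mean and SD as bars. Serpina3g does not overlap between vehicle and CL316243 in either genotype, and Serpina9 falls from a median of 0.19 to -3.94 in LWT.

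Several inhibitors of clotting, fibrinolysis and complement are secreted by the liver. Serpina10, the protein Z-dependent inhibitor of factor Xa, rose in both genotypes, from a median of 2.53 to 3.35 in LWT (change 0.77, SE 0.26, adjusted p = 0.0249) and from 2.64 to 3.74 in LKO (1.32, SE 0.26, adjusted p = 0.000411). The LKO groups did not overlap, and 1 LWT treated mouse, at 2.19, was below the whole LWT vehicle group, which began at 2.30. The LWT call was lost without LWT vehicle replicate 4 or without LWT CL316243 replicate 1, 2 or 3 (changes of 0.54 to 0.72, adjusted p up to 0.0761). It was also lost with the mean of all kept probes (0.69, adjusted p = 0.0622) and with only the groups compared in the fit (0.77, adjusted p = 0.06). Within slides the LWT change was -0.11, 1.46 and 0.94, and the second Serpina10 probe was not called in LWT (0.61, adjusted p = 0.139) but rose in LKO (1.65). Serpind1, heparin cofactor II, which inhibits thrombin, fell in both. Its LWT level went from 6.82, 6.84 and 6.92 (lowest, median and highest of 6 mice) to 5.51, 5.92 and 6.46, and its LKO level from 6.66, 6.90 and 7.10 to 5.92, 6.19 and 6.34. It fell by 0.89 in LWT (SE 0.13, adjusted p = 1.2e-05) and by 0.73 in LKO (SE 0.13, adjusted p = 0.000113), with no overlap in either.

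Serping1, the C1 inhibitor that restrains complement and kallikrein, rose in LKO from a median of 7.24 to 7.57 (change 0.31, SE 0.07, adjusted p = 0.00175), without overlap. In LWT its change was 0.14 (adjusted p = 0.153). Serpinc1, antithrombin, had medians between 8.98 and 9.07 in the 4 groups and changes of 0.10 in LWT and 0.08 in LKO, neither called, whereas it was called lower in both after quantile normalization and in the authors' deposited series table. A dimmer Serpinc1 probe fell by 0.59 in LKO (adjusted p = 0.00115). Serpinf2, alpha-2-antiplasmin, the plasmin inhibitor, had changes of -0.09 and 0, with no call. Serpina5, the protein C inhibitor, fell in LWT from a median of -3.12 to -4.78 (change -1.44, SE 0.40, adjusted p = 0.00601), where only 3 of 6 treated mice were well above background. With normexp background correction that change was -0.45 (adjusted p = 0.151) and was not called.

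**Figure D3:**
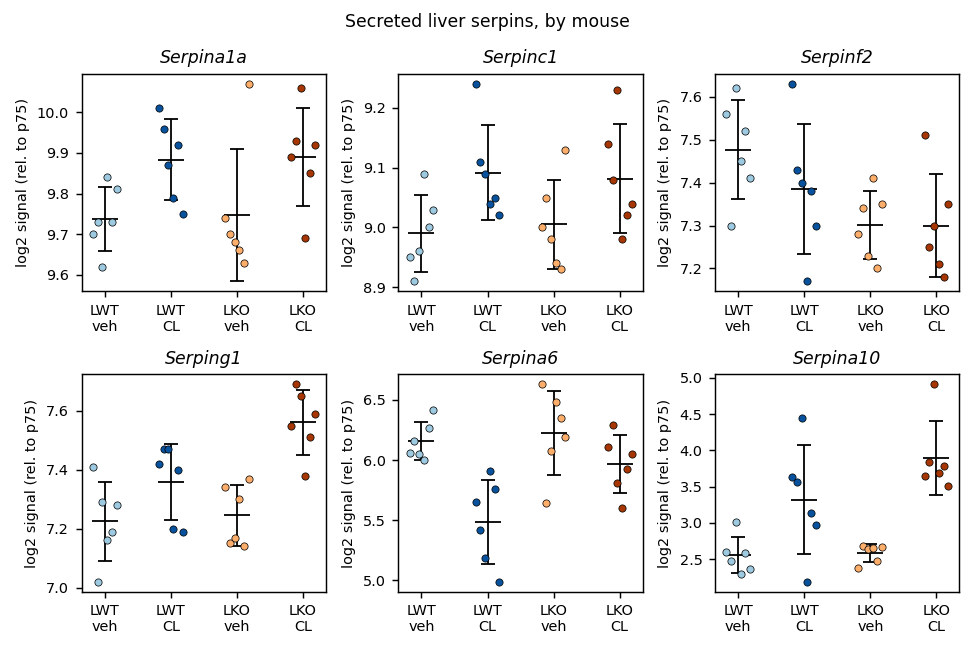
Log2 signal relative to the 75th percentile of the array for 6 secreted liver serpins, with 1 point per mouse, 6 mice per group, and the mean and SD as bars. Serpinc1 groups overlap throughout, while Serpina10 in LKO rises without overlap from 2.38 to 2.68 with vehicle to 3.51 to 4.91 with CL316243.

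The Serpina3 genes are the mouse counterparts of human alpha-1-antichymotrypsin, and Serpina3n is the member best known as an acute phase gene. Of 10 tested Serpina3 genes, 4 rose in LWT and 5 in LKO, where 18.9% and 20.9% of all genes did, and 0 fell in either, apart from Serpina3k, which was called lower in LKO in the authors' deposited series table. Serpina3n went from 3.16, 3.61 and 4.07 (lowest, median, highest) to 4.03, 6.24 and 7.23 in LWT, and from 3.29, 3.60 and 3.67 to 4.86, 5.90 and 7.47 in LKO. In LWT, 1 treated mouse, replicate 4 at 4.03, lay within the vehicle range, and in LKO the groups did not overlap. The change was 2.33 in LWT (SE 0.41, adjusted p = 0.00011) and 2.37 in LKO (SE 0.41, adjusted p = 9.57e-05), with a difference of 0.04 (95% interval -1.16 to 1.24, adjusted p = 0.982).

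Serpina3i, a paralog, rose by 2.38 in LWT (SE 0.57, adjusted p = 0.00198) and by 2.17 in LKO (SE 0.57, adjusted p = 0.00403). Its LWT vehicle mice lay at -3.44, -0.55 and 0.18 and its LWT treated mice at -0.16, 1.66 and 2.86. Its LKO mice went from -1.16, -0.82 and -0.05 to 0.56, 1.03 and 3.34, without overlap. A second probe, which resembles Serpina3h, gave 1.97 and 2.85, with 4 of 6 LWT and 1 of 6 LKO vehicle mice well above background, so the LKO size is uncertain. Serpina3g, an inhibitor of lysosomal cysteine proteases, went from a median of 0.91 to 2.05 in LWT (change 1.18, SE 0.23, adjusted p = 0.000282) and from 0.70 to 2.16 in LKO (1.44, SE 0.23, adjusted p = 3.88e-05), without overlap in either. Serpina3f rose by 1.04 in LWT (SE 0.35, adjusted p = 0.0229) and by 1.44 in LKO (SE 0.35, adjusted p = 0.00243). Its LWT call was lost without LWT CL316243 replicate 3 (0.79, adjusted p = 0.0711) or without LWT vehicle replicate 4 (0.93, adjusted p = 0.0549). Within slides the LWT change was -0.13, 1.67 and 1.57. Its main probe is placed beside the Serpina3h probe on mm9, and a second probe, placed before Serpina3g, gave like values of 1.26 and 1.51.

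Serpina3b, the fifth to rise in LKO, changed by 0.37 there (SE 0.09, adjusted p = 0.00335) and by 0.20 in LWT (adjusted p = 0.0989). The other 5, Serpina3c, Serpina3h, Serpina3j, Serpina3k and Serpina3m, were called in neither genotype, with changes of 0.08 to 0.33 in LWT and -0.33 to 0.33 in LKO. Genes called higher were therefore interspersed with uncalled neighbours: by their probes, Serpina3g, Serpina3f and Serpina3i lie together with the uncalled Serpina3h, and Serpina3j, Serpina3k and Serpina3m lie between them and Serpina3n.

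**Figure D4:**
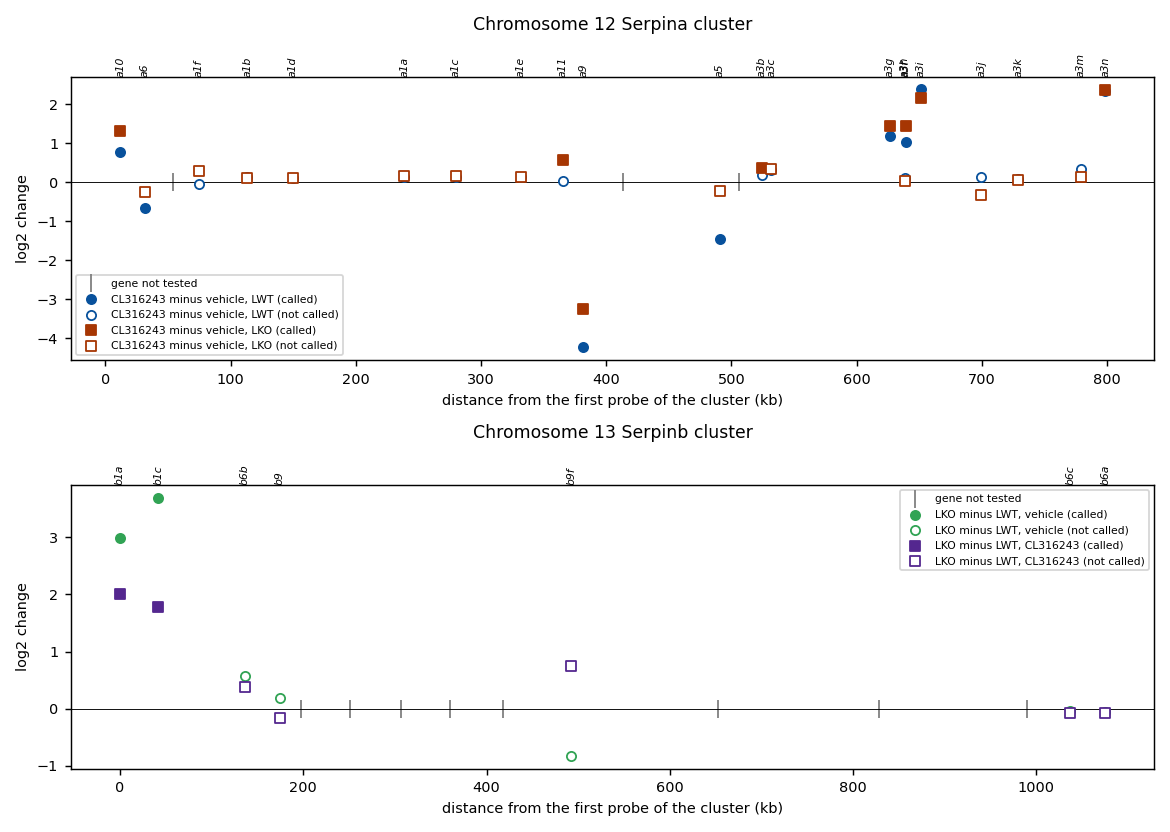
Log2 change of each tested gene against the distance in kb from the first probe of the cluster, with CL316243 minus vehicle on chromosome 12 (upper panel) and LKO minus LWT on chromosome 13 (lower panel); filled symbols were called and grey ticks are genes not tested. On chromosome 12 the calls are spread over the cluster, and on chromosome 13 Serpinb1a and Serpinb1c, at the left end, stand at 2.99 and 3.69 under vehicle, the latter a fitted value against LWT mice not well above background.

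The same treated mice were highest and lowest across these genes. For all 6 genes that rose in both genotypes, LWT CL316243 replicate 3 was the highest and replicate 4 the lowest of its group. In LKO, replicate 3 was the highest for all 6 and replicate 4 the lowest for 4. The acute phase list, 22 genes such as Saa1, Lcn2, Orm1 and Hp, was called higher for 19 genes in LWT (median change 0.88) and 22 in LKO (median 1.26). These are 86.4% and 100% of the list, beside 18.9% and 20.9% of all genes. The list was chosen with earlier results of these data known. The mean shift of the list from LWT vehicle was 0.34 in LWT CL316243 replicate 4 and 0.95 to 1.94 in the other LWT treated mice. In LKO it was highest in replicate 3, at 2.06. On slide 1, which held LWT CL316243 replicate 4, the LWT change was 0.43 for Serpina3i and 1.01 for Serpina3n, against 3.13 and 3.57, and 3.24 and 2.74, on the other slides. Without that mouse 11 members were called in LWT, and without replicate 3 there were 8, of which 4 rose.

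Some neutrophil markers also rose with CL316243. Of 9 listed, 7 were tested, and 3 rose and 1 fell in LWT while 5 rose in LKO. Among all genes 18.9% rose and 19.4% fell in LWT, and 20.9% rose in LKO. S100a8 changed by 1.48 and 2.30 and Retnlg by 2.06 and 3.48 in LWT and LKO, while Camp fell by 0.41 in LWT and Mpo, at 0.21 and 0.29, was called in neither. Summed over the whole list, LWT mice reached 92.2 to 103 with vehicle and 102 to 119 with CL316243, and LKO mice 82.1 to 97.6 and 99.4 to 166, on a linear scale where 1 is the 75th percentile. Csf3r made up 93.4% of that sum, and without it the medians were 2.47 and 7.76 in LWT and 1.98 and 7.29 in LKO. Ltf was well above background on no array of any group. Kupffer cell and macrophage markers had 0 of 8 called in each comparison, beside 1.18% to 40.3% of all genes. The part of neutrophils in the Serpin changes was not tested.

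The alpha-1-antitrypsin genes, Serpina1a to Serpina1e, and their relative Serpina1f were called in no comparison, although Serpina1d was called lower with CL316243 in both genotypes in the authors' deposited series table. Serpina1a, whose product restrains neutrophil elastase in blood, had medians of 9.73 and 9.89 in LWT mice without and with CL316243, and of 9.69 and 9.91 in LKO mice. Its changes were 0.14 (95% interval -0.01 to 0.29, adjusted p = 0.136) in LWT and 0.15 (-0.01 to 0.30, adjusted p = 0.121) in LKO. After quantile normalization these became -0.04 and -0.08, so no direction is given for it. Serpina1a to Serpina1e had changes of 0.10 to 0.16 in both genotypes. The probes of Serpina1a and Serpina1c are too alike to be independent readings, and the Serpina1d probe could not be compared. Serpina1f, near the background at medians of -4.28 to -4.02, had changes of -0.03 and 0.28.

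Serpina9 and Serpina6 went the other way. Serpina9, known as centerin and described in germinal centre B cells, had the largest fall among the 37 members. It lay at -0.07, 0.19 and 1.13 in LWT vehicle mice and at -4.42, -3.94 and -3.10 with CL316243, and at -0.68, 0.27 and 1.49, then -3.87, -2.81 and -2.39, in LKO. It fell by 4.23 in LWT (SE 0.32, adjusted p = 1.23e-09) and by 3.24 in LKO (SE 0.32, adjusted p = 1.77e-07), with no overlap. The difference between these effects, 0.99 (95% interval 0.06 to 1.92), was not called (adjusted p = 0.237). A second Serpina9 probe gave -3.92 and -3.31, with only 2 of 6 treated mice of each genotype well above background. With normexp background correction the changes were -2.87 and -2.37, both called. The B cell marker Ms4a1 fell as well, by 1.45 in LWT and 1.67 in LKO. Of the 7 listed lymphocyte markers 6 were tested, and 2 fell in each genotype while Cd3e rose in LKO by 0.24. Among all genes 19.4% fell in each genotype. Summed lymphocyte levels went from 2.70 to 3.14 with vehicle to 2.46 to 3.02 with CL316243 in LWT, and from 2.18 to 3.24 to 2.17 to 2.99 in LKO, and Cd79a was well above background on no array. The part of lymphocytes in the Serpina9 change was not tested.

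Serpina6 encodes corticosteroid-binding globulin, the blood carrier of glucocorticoids and not a protease inhibitor. It fell in LWT from 6.00, 6.11 and 6.42 to 4.99, 5.53 and 5.91, without overlap (change -0.67, SE 0.16, adjusted p = 0.00196). In LKO the change was -0.26 (SE 0.16, adjusted p = 0.201), and the difference between genotypes, 0.41, was not called (adjusted p = 0.358). Serpina11, a liver-expressed member of the same cluster, rose in LKO from 5.64, 5.69 and 5.88 to 6.10, 6.31 and 6.42, without overlap (0.56, SE 0.10, adjusted p = 9.09e-05). In LWT its change was 0.04 (SE 0.10, adjusted p = 0.766), and the difference between genotypes was called (0.51, SE 0.14, adjusted p = 0.0263).

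Between genotypes, LKO livers had 3 members higher than LWT under vehicle and 0 lower (8.11% of members), beside 1.18% of all genes, 0.398% higher and 0.778% lower. Under CL316243, 5 were higher and 0 lower (13.5%), beside 15.9% of all genes, 7.74% higher and 8.17% lower. These comparisons share no arrays with each other. The interaction, which asks whether CL316243 acted differently in the genotypes, was called for 2 members in the positive and 1 in the negative direction (8.11%), beside 5.41% of all genes, 2.17% and 3.24%. All 3 genes called under vehicle and 3 of the 5 called under CL316243 had groups that did not overlap, among them Serpinb1c, whose lower values are background readings. Serpinb1c is counted in these and in each of the shares above. It passed the filter only through LKO vehicle, the group where it is high, so its calls add no support. Among all genes, 0.703% were higher and 1.1% lower without overlap under vehicle, and 2.53% and 4.04% under CL316243.

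Serpinb1a, an intracellular inhibitor of neutrophil elastase, cathepsin G and proteinase 3, was higher in LKO livers. Under vehicle it lay at -2.38, -2.21 and -1.88 in LWT and at 0.05, 0.85 and 1.53 in LKO (difference 2.99, SE 0.26, adjusted p = 1.26e-07). Under CL316243 it lay at -3.35, -2.62 and -2.09 in LWT and -1.45, -0.63 and 0.04 in LKO (2.0, SE 0.26, adjusted p = 7.6e-06). The groups did not overlap in either. CL316243 lowered it in LKO, where it fell by 1.49 (SE 0.26, adjusted p = 0.000117), while in LWT the change was -0.51 (adjusted p = 0.136). The difference between these effects, -0.99, was not called (adjusted p = 0.141), although with normexp background correction it was (-1.08, adjusted p = 0.032).

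Serpinb1c, a neighbouring copy of the same gene, was well above background in 0 of 12 LWT mice, in 6 of 6 LKO vehicle mice and in 2 of 6 LKO CL316243 mice. Its LKO vehicle values were -3.72, -2.75 and -2.41, against measured values of -7.45 to -6.20 in LWT vehicle (fitted difference 3.69, adjusted p = 1.52e-07). With the LWT level set to the dimmest signal that still counted as well above background, LKO was 4.33-fold higher. That fold is not a strict lower bound, since other processing gave smaller differences, listed below. The gene entered the fit only through the LKO vehicle group, where it is high, so this call is a description and not independent support. Under CL316243 its LKO mice lay at -5.22 to -3.97 and its LWT mice at -7.32 to -5.25, mostly background values, and no fold is given. It fell by 1.69 in LKO with CL316243 (SE 0.33, adjusted p = 0.000322), and the interaction was -1.90 (adjusted p = 0.0163), but with no measured LWT level and 4 of 6 treated LKO mice not well above background the sizes of these fitted values are uncertain. With normexp background correction the vehicle difference was 0.96 and the interaction -0.64, both called, and in the authors' deposited series table they were 1.37 and -0.85. A second Serpinb1c probe was near background in all groups, well above it in 1 LWT vehicle mouse only, so the difference rests on 1 of 2 probes. The detected probe and that of the brighter Serpinb1a cover different parts of their transcripts (from bases 420 and 1126) and could not be compared. Whether the detected probe took up Serpinb1a signal was not tested.

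**Figure D5:**
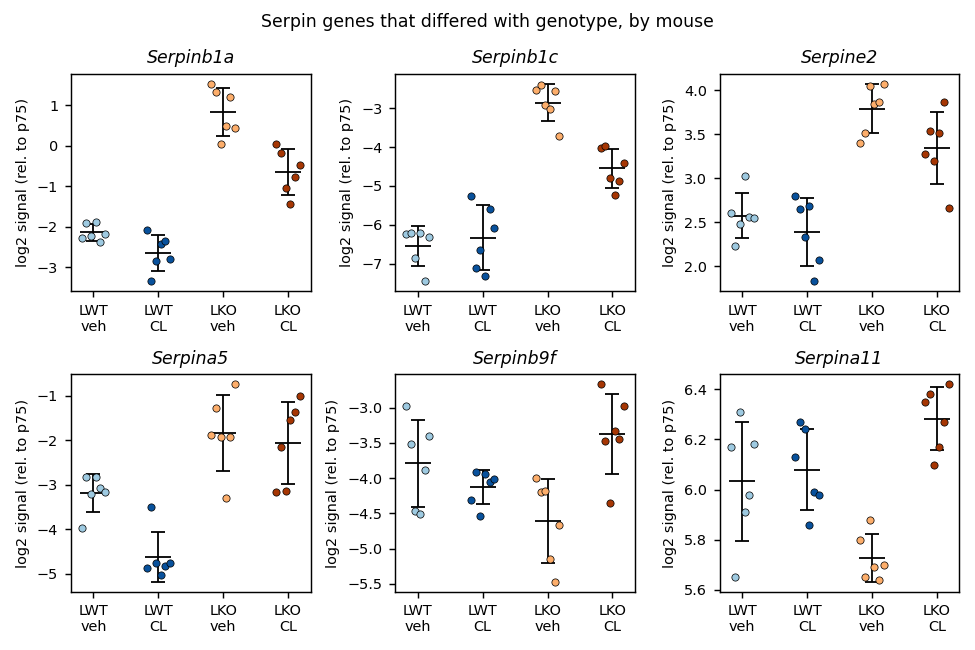
Log2 signal relative to the 75th percentile of the array for 6 Serpin genes called between genotypes or in the interaction, with 1 point per mouse, 6 mice per group, and the mean and SD as bars. Serpinb1a is higher in LKO than in LWT without overlap under vehicle and under CL316243; Serpinb1c lies apart in LKO vehicle mice, and its LWT mice and 4 of 6 treated LKO mice were not well above background.

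The probes of Serpinb1a and Serpinb1c lay at the start of the chromosome 13 cluster, and only these 2 of the 7 tested members there were called between genotypes under vehicle. Neutrophil markers gave 0 of 7 calls between genotypes under vehicle, where only 1.18% of all genes were called. Their summed level without Csf3r ranged over 1.74 to 4.93 in LWT and 1.77 to 3.05 in LKO mice given vehicle. The part of neutrophils in the Serpinb1a and Serpinb1c differences was not tested. Serpinb9f, a relative of the granzyme B inhibitor Serpinb9, was called in the interaction (1.57, SE 0.41, adjusted p = 0.0253) and rose in LKO by 1.23 (SE 0.29, adjusted p = 0.00177). Its LKO vehicle mice lay at -5.47, -4.44 and -4.00 and its treated LKO mice at -4.35, -3.39 and -2.67, close to background, and 2 and 5 of 6 were well above it. With normexp background correction the interaction was 0.55 (adjusted p = 0.0335), and with no filter on dim probes it was lost (adjusted p = 0.0559). Serpinb6a, Serpinb6b, Serpinb6c, Serpinb8 and Serpinb9 were called in no comparison, and the nearest was Serpinb6b with CL316243 in LWT (0.59, adjusted p = 0.0506), which was called with normexp background correction (0.43, adjusted p = 0.0467). A dimmer Serpinb8 probe was higher in LKO under CL316243 (1.07, adjusted p = 0.0189), with 2 of 6 LWT and 4 of 6 LKO mice well above background. Its mean in LWT vehicle mice was -4.48, where the main probe read 5.48. The main probe resembles probes of other genes, so the lack of a call for Serpinb8 is uncertain.

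Serpine2, protease nexin-1, an inhibitor of thrombin and urokinase that is held at cell surfaces, was higher in LKO under vehicle and under CL316243. It lay at 2.23, 2.55 and 3.02 in LWT vehicle and 3.40, 3.85 and 4.07 in LKO vehicle mice (1.21, SE 0.19, adjusted p = 0.000528), without overlap. Under CL316243 it lay at 1.83, 2.49 and 2.80 in LWT and 2.66, 3.39 and 3.87 in LKO (0.94, SE 0.19, adjusted p = 0.000993), overlapping narrowly. A dimmer Serpine2 probe gave 1.47 and 0.92 between genotypes, of which the first was called, and it was called lower with CL316243, with changes of -1.36 in LWT and -1.91 in LKO. The main probe had -0.18 and -0.45, not called, but in LKO it was called lower after quantile normalization, in the authors' deposited series table and with normexp (-0.47 in each). Serpina5 was higher in LKO under CL316243 (2.55, SE 0.40, adjusted p = 6.38e-05; -3.16, -1.85 and -1.01 against -5.03, -4.78 and -3.49), without overlap. Only 3 of 6 LWT mice were well above background there, and the difference was 1.21 with normexp background correction and 1.54 in the authors' deposited series table, both called. Under vehicle the difference of 1.34 was not called (adjusted p = 0.142). Serpina6 was higher in LKO under CL316243 by 0.48 (adjusted p = 0.0431), a call lost in 4 of 11 alternative settings and in 8 of 24 fits without 1 mouse (LWT vehicle 2, LWT CL316243 2, 3 and 6, LKO CL316243 1, 2, 5 and 6; adjusted p up to 0.118). Serpinf1, pigment epithelium-derived factor, and Serpinh1, the collagen chaperone HSP47, were called in no comparison, although 2 dimmer Serpinf1 probes fell in LKO with CL316243, by 0.56 and 0.19.

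The proteases and cofactors that serpins act on were read from a list of 30 genes, of which 27 were tested. In LWT 5 rose and 6 fell with CL316243 (median change -0.08; 40.7% called, beside 38.3% of all genes), and in LKO 9 rose and 5 fell (median 0.03; 51.9%, beside 40.3%). Plaur, the receptor that holds urokinase at the cell surface, rose by 1.69 and 1.97 in LWT and LKO. Ctsl, a lysosomal cysteine protease, rose by 0.81 and 1.13. Klkb1, plasma prekallikrein, fell by 0.96 and 0.88. Proz, the cofactor through which Serpina10 acts on factor Xa, fell by 0.52 and 0.36, while Serpina10 itself rose. F7 and F11, which start and amplify clotting, fell by 0.51 and 0.42 and by 0.42 and 0.36. Between genotypes Lrp1, the receptor that clears serpin-protease complexes, was lower in LKO by -0.38 under vehicle (adjusted p = 0.0434) and -0.59 under CL316243 (adjusted p = 6.75e-05), the only one of the 27 called lower in either. Under CL316243 another 4 were called higher in LKO, Sdc4 by 0.80, Ctsl by 0.55, F7 by 0.34 and Elane by 0.28, which makes 18.5% called beside 15.9% of all genes. In the interaction 0 of the 27 were called.

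The 25 members that were not tested lay near or below background. Of them, 15 were well above background on 0 of 24 arrays, including Serpinb2, Serpinb5, Serpinb3a and Serpina16, and 10 were so on 1 to 3 arrays of some group. The best measured were Serpina12, the adipokine vaspin, on 10 of 24 arrays, and Serpinb3c on 9, each on at most 3 mice per group. Serpini1, neuroserpin, and Serpine3 were among the remaining ones. Of 27 clade B genes only 8 were tested, against 21 of 24 in clade A.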

How the data were processed

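Liver RNA of 24 mice (200 ng each) was hybridised to 24 single-colour arrays on 3 slides of 8. Per the file headers, the authors made the deposited intensity values with Agilent Feature Extraction 10.10.1.1 (background-subtracted, build mm9). The authors' deposited series table holds log2 values with column medians of 8.08, and limma is named in the submitters' processing notes. Quantile normalization of the log2 median signal here gave values that followed that table (r of at least 0.9999 per array). Here, log2 processed intensity minus the 75th percentile of each array was used, without outlier spots. Spots of a probe were averaged, and a probe was kept where 4 of 6 arrays of some group showed it well above background, and the brightest kept probe stood for its gene (32037 probes, 21331 genes). Means of the 4 groups were fitted with limma 3.58.1 in R 4.3.3 and adjusted by Benjamini-Hochberg over all genes, with calls at an adjusted p under 0.05. The fit was tested on simulated data. Genes described fully are Serpina1a, Serpina3n, Serpinb1c and up to 8 called members with the largest change per comparison; others are grouped, and those outside this rule were named after their values were seen. Members and lists were chosen with earlier results of these data known. Replicates are separate mice. Some members and markers are not reported here.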

Additional observations from a re-analysis of the deposited data

Results flagged for a closer look

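Of 60 groups examined over 15 members, 4 held a mouse set apart from the other 5, where chance alone gives about 1 in 20. Serpina3i was lowest in LWT vehicle replicate 4, at -3.44, with the next mouse at -0.67. In the same mouse the second Serpina3i probe was also the lowest of the 6 LWT vehicle mice, at -5.48. Over fits without 1 mouse the Serpina3i change in LWT was 1.87 to 2.71, called in each, so its size depends on single mice. Serpina5 was lowest in LWT vehicle replicate 1, at -3.98, with the next at -3.20, and highest in LWT CL316243 replicate 2, at -3.49, with the next at -4.75. Serpina1a was highest in LKO vehicle replicate 6, at 10.07, with the next at 9.74.

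The interaction test across all genes called 3 members. The LKO effect minus the LWT effect was 0.51 for Serpina11, -1.90 for Serpinb1c and 1.57 for Serpinb9f. Serpinb1c had no LWT mouse well above background, so a fall could not be seen in LWT and its call adds no support. Serpinb9f lay close to background.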

How the results depend on the processing

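Over 11 alternatives (10 for the interaction) the number of members called was 10 to 13 in LWT, 13 to 18 in LKO, 3 between genotypes under vehicle, 4 to 7 under CL316243 and 1 to 4 for the interaction. With no filter on dim probes the interaction was called for 1 member, Serpinb1c, instead of 3. That setting tests more genes, and Serpinb1c had no LWT mouse well above background. Leaving out 1 mouse at a time gave 8 to 12, 14 to 18, 3 to 4, 4 to 6 and 3 to 3 in the same order. With the replicate block the counts were 11, 15, 3, 5 and 3. Deviations of same-numbered mice correlated at r from -0.18 to 0.42 (36 pairs, median 0.06, 11 over 0.1) and those of other mice at a median of -0.01 (180 pairs, 20 over 0.1). These values cannot settle whether the numbers pair the samples, since paired mice need not all exceed 0.1. The main fit left the numbers out, and the replicate block gives the counts with them. Serpina1a, called in no comparison, changed sign with quantile normalization (-0.08 in LKO, -0.04 in LWT, -0.02 between genotypes under CL316243, -0.04 for the interaction), in the authors' deposited series table (-0.04, -0.04, -0.01 under CL316243, -0.02 under vehicle), with the mean of all probes (-0.01 under vehicle) and with normexp (0, interaction). Its values without 1 mouse were -0.02 to 0.05 under CL316243, -0.06 to 0.03 under vehicle and -0.03 to 0.07 for the interaction. Those of Serpina3n, also not called there, were -0.46 to 0.18 under CL316243 and -0.35 to 0.29 for the interaction. The cause of these changes was not tested. The Serpina11 interaction was lost with no filter (adjusted p = 0.0687). Members near background are limited by signal: with normexp the Serpina5 change in LWT was lost.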
